A study of Mus musculus with 6 samples.

Results

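The genes described here are 40 mouse genes of ribosome biogenesis and of RNA polymerases I and III, taken by symbol from a list and found, all 40, among the 52636 genes of the tables. The 6 RNA sequencing libraries come from RAW264.7, an established mouse macrophage line labelled BALB/c and grown in high-glucose DMEM with fetal bovine serum and antibiotics. In the C2S group (n = 3) the cells were kept with the C2S extract (150 µg/ml, 24 h), and in the PM_control group (n = 3) without it. Neither C2S nor PM is spelled out in the labels. Whether the replicates were separate cultures is not stated. The p-values therefore measure only how these libraries spread, which may be technical.

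Ribosome production starts in the nucleolus, where RNA polymerase I copies the ribosomal RNA genes into one long precursor. RNA polymerase III supplies the 5S ribosomal RNA and the transfer RNAs. Small nucleolar ribonucleoproteins (snoRNPs) modify the precursor, assembly factors fold and cut it into the RNAs of the small (40S) and large (60S) subunits, and export factors carry both subunits to the cytoplasm. The pathway is a large consumer of energy and nucleotides and is known to follow the growth rate of the cell. The 40 genes were assigned to transcription (13 genes), processing (23 genes) and export (4 genes). The comparison asks how the transcripts of each step differed between the groups.

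Estimated counts summed to between 8594473 and 10491304 per C2S library and between 9149567 and 10665867 per PM_control library. A floor of 3 counts in a library equals 0.281 to 0.349 CPM (counts scaled by library size with TMM), a limit that covers counting error only, and all 40 genes lay well above it and were tested. All 8 macrophage markers passed the count filter, with summed levels of 8297 to 8516 CPM in C2S libraries and 7091 to 7513 CPM in PM_control libraries. Of the 8, 5 were called higher with C2S, 1 lower, and 2 did not pass. Among those higher were Itgam (0.80 ± 0.06 on the log2 scale) and Csf1r (0.34 ± 0.07), both uncertain since other genes overlap 68.7% and 15.1% of their exon length in that order, and the lower one was Cd14 (-0.60 ± 0.06). Of 8 markers of other cell types, 4 had no count in any library, and the sum was 3.28 to 9.02 CPM in C2S libraries and 0.202 to 0.315 CPM in PM_control libraries. Most of that sum was Pecam1, at 6.02 ± 2.54 CPM in C2S libraries and 0.200 ± 0.108 CPM in PM_control libraries (SD, n = 3 each). Pecam1 was called higher (4.84 ± 0.51 on the log2 scale; edgeR, adjusted p = 5.31e-07), but its PM_control mean lies below the floor of 3 counts. Whether Pecam1 came from the macrophages or from other cells cannot be told in bulk RNA. The part of these markers in the results was not tested.

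Of the 40 genes, 14 were lower and 8 higher with C2S, and 18 did not pass the test (edgeR's quasi-likelihood test, adjusted p threshold 0.05). Among all 11561 tested genes, 55.4% passed, 28.4% lower and 27% higher, so the 22 of 40 that passed are close to the background in number. The median log2 fold change (C2S over PM_control) of the 40 genes was -0.12, beside -0.0021 for all tested genes. The split moved with the scaling. With library sizes alone, 20 of the 40 were lower and 3 higher, and the median of all genes itself moved by -0.09. Only Rrs1, Ppan and Polr1b passed with at least a 2-fold change, and 14.5% of all tested genes did. The CPM of the groups did not overlap in 24 of the 40 genes, nor in 61.1% of all tested genes. The 40 genes together took 0.860%, 0.871% and 0.874% of all counts in C2S libraries, against 0.952%, 0.975% and 0.994% in PM_control libraries, with no overlap. These are shares of raw totals, without TMM scaling. The TMM factors were 0.969 to 0.972 in C2S libraries and 1.02 to 1.04 in PM_control libraries, so part of this gap depends on the scaling. Less RNA of these genes per cell and a smaller share of the cells that express them cannot be told apart in bulk RNA.

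**Figure D1:**
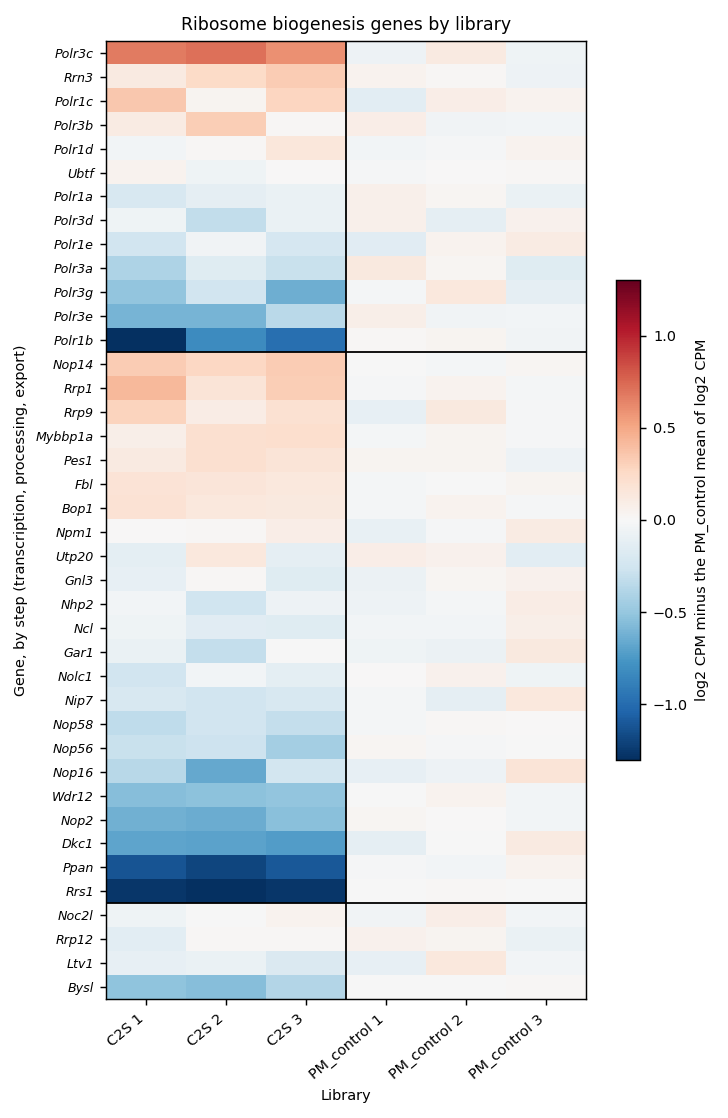
Level of each of the 40 genes in each library, as log2 CPM minus the mean log2 CPM of the 3 PM_control libraries (blue lower, red higher), with genes in rows by step and libraries in columns. Rrs1, Ppan and Polr1b are the darkest blue rows in the 3 C2S libraries and Polr3c the darkest red, while most rows change little.

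Transcription by RNA polymerase I was represented by subunits that moved unequally. Polr1b, the second largest subunit and part of the catalytic centre (ENSMUSG00000027395, GRCm38 chromosome 2, 129100995 to 129126594, 15 exons), had 44.0, 62.0 and 55.6 CPM in C2S libraries, against 111, 112 and 106 CPM in PM_control libraries. The groups did not overlap, and Polr1b fell to a fold of 0.490 (log2 fold change -1.03 ± 0.10, SE; edgeR, adjusted p = 1.55e-07). Polr1a, the largest subunit, had 260, 277 and 282 CPM with C2S, against 314, 306 and 283 CPM in PM_control libraries. Its groups came within 1 CPM of each other, and it did not pass (-0.14 ± 0.06; edgeR, adjusted p = 0.0603). Polr1e, a subunit that aids initiation and elongation, was at -0.17 ± 0.13 and did not pass (edgeR, adjusted p = 0.260).

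Polymerases I and III share Polr1c and Polr1d, which form the assembly platform of both enzymes. Polr1d had 85.9, 89.3 and 97.5 CPM with C2S, against 86.0, 87.3 and 91.3 CPM in PM_control libraries, so the groups overlapped (0.04 ± 0.07; edgeR, adjusted p = 0.629). Polr1c was at 0.23 ± 0.10 and missed the threshold (edgeR, adjusted p = 0.0567). Some of the reads of Polr1d are shared with other genes, since its counts are not whole. The same holds for Fbl and Npm1, described below.

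The initiation factors of RNA polymerase I were level or slightly higher. Ubtf, which keeps ribosomal RNA genes in an open state, had 329, 305 and 320 CPM with C2S, against 314, 318 and 321 CPM in PM_control libraries (0.00 ± 0.06; edgeR, adjusted p = 0.982). Its C2S values spread to both sides of the PM_control values. Rrn3, which docks the polymerase on the promoter and is known as a target of growth signalling, had 119, 131 and 137 CPM with C2S, against 113, 111 and 105 CPM in PM_control libraries. The groups did not overlap and Rrn3 rose by 17.4% (log2 fold change 0.23 ± 0.07; edgeR, adjusted p = 0.00882). That call was lost without C2S replicate 3 (adjusted p = 0.0516), with library sizes alone (0.0794) and on log2(TPM + 1) with limma (0.269).

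RNA polymerase III had 3 subunits lower, 1 higher and 2 that did not pass, beside 28.4% lower and 27% higher among all tested genes. Polr3c, a subunit of the trimer that helps the enzyme to start (ENSMUSG00000028099, chromosome 3, 96711490 to 96727628, 15 exons), had 116, 120 and 110 CPM with C2S, against 69.6, 79.1 and 70.1 CPM in PM_control libraries. It stood apart in all 3 libraries and rose 1.58-fold (0.66 ± 0.07; edgeR, adjusted p = 9.11e-07), the highest fitted change among the 40 genes. Polr3g, which belongs to the same trimer and has a paralog that can take its place, had 11.7, 14.1 and 10.8 CPM with C2S, against 16.4, 18.4 and 15.4 CPM in PM_control libraries. Polr3g fell to a fold of 0.725 (-0.46 ± 0.15; edgeR, adjusted p = 0.0123), and its call was lost without C2S replicate 3 (adjusted p = 0.0544), without PM_control replicate 2 (0.0548) and on log2(TPM + 1) with limma (0.131).

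Polr3e, which pairs with Polr3d in a subcomplex for initiation and termination, had 41.5, 41.4 and 49.3 CPM with C2S, against 66.4, 61.2 and 61.4 CPM in PM_control libraries. No C2S value reached the PM_control range (-0.52 ± 0.09; edgeR, adjusted p = 0.000101). Its partner Polr3d was at -0.15 ± 0.11 and did not pass (edgeR, adjusted p = 0.240). Polr3a, the largest and catalytic subunit, fell by 0.29 ± 0.09 on the log2 scale (edgeR, adjusted p = 0.0123), a call lost without C2S replicate 1 (adjusted p = 0.0669) or PM_control replicate 1 (0.0697). Polr3b, the second largest subunit, was at 0.15 ± 0.08 and did not pass (edgeR, adjusted p = 0.131). RNAs made by polymerase III were hardly counted in these libraries. The 7SK RNA (Rn7sk) had 3, 6 and 7 counts in C2S libraries, against 0, 3 and 4 in PM_control libraries, and was below the count filter.

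Processing held the genes with the largest falls, those of Rrs1 and Ppan. Both belong to assembly of the large subunit, a role in which 6 of 10 genes were lower and 3 higher. The share over all tested genes was 28.4% lower and 27% higher, and the split within this role was not tested. Rrs1, which in yeast brings the 5S ribonucleoprotein into the large subunit (ENSMUSG00000061024, chromosome 1, 9545408 to 9547455), is encoded by 1 exon. It had 63.9, 60.6 and 64.1 CPM in C2S libraries, against 153, 155 and 153 CPM in PM_control libraries. The groups were far apart relative to their spread, and Rrs1 fell to a fold of 0.409 (-1.29 ± 0.06; edgeR, adjusted p = 3.79e-11). Ppan, an assembly factor whose yeast counterpart is needed for the large subunit (ENSMUSG00000004100, chromosome 9, 20888175 to 20892178, 11 exons), had 85.8, 81.3 and 86.7 CPM with C2S, against 184, 182 and 193 CPM in PM_control libraries. Ppan also stood apart in all 3 libraries (fold 0.454, log2 fold change -1.14 ± 0.06; edgeR, adjusted p = 1.27e-10).

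Nop2, a methyltransferase of the large ribosomal RNA, had 185, 182 and 195 CPM with C2S, against 288, 286 and 277 CPM in PM_control libraries (-0.60 ± 0.06; edgeR, adjusted p = 1.67e-07). All C2S values lay below all PM_control values. Nop16 (-0.41 ± 0.10; edgeR, adjusted p = 0.00189) and Nip7 (-0.23 ± 0.09; edgeR, adjusted p = 0.0329), both large subunit assembly factors, fell as well. The call of Nip7 was lost without any one of the 3 C2S libraries (adjusted p = 0.0712, 0.0677 and 0.0666), without PM_control replicate 3 (0.151), with DESeq2 (0.0907) and with the trend over GC content removed (0.0954). Gnl3, the nucleolar GTP-binding protein nucleostemin, was at -0.08 ± 0.07 and did not pass (edgeR, adjusted p = 0.303).

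Pes1, Bop1 and Wdr12 form the PeBoW complex, which processes the precursor of the large subunit RNAs. Wdr12 was the partner that fell, with a mean of 71.5 ± 1.18 CPM with C2S and 103 ± 2.88 CPM in PM_control libraries (-0.53 ± 0.07; edgeR, adjusted p = 4.40e-06). Pes1 had 266.7, 285.1 and 276.5 CPM with C2S, against 253.0, 252.3 and 235.5 CPM in PM_control libraries (0.16 ± 0.06; edgeR, adjusted p = 0.0273). Bop1 had 244, 236 and 234 CPM with C2S, against 210, 221 and 213 CPM in PM_control libraries (0.15 ± 0.06; edgeR, adjusted p = 0.0354). Both were called higher with small margins between the groups. Rrp1, a nucleolar factor of large subunit maturation, rose more clearly, with 250, 209 and 232 CPM with C2S, against 184, 192 and 183 CPM in PM_control libraries (0.31 ± 0.07; edgeR, adjusted p = 0.000947).

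Of the factors that build the small subunit, Nop14, a scaffold of the processome, had 112, 107 and 112 CPM with C2S, against 89.0, 87.4 and 90.9 CPM in PM_control libraries. The groups did not overlap and Nop14 rose by 23.8% (0.31 ± 0.06; edgeR, adjusted p = 0.000626). Utp20, a very large processome protein with 62 exons, had 335, 402 and 338 CPM with C2S, against 390, 380 and 332 CPM in PM_control libraries. Its groups overlapped throughout (-0.04 ± 0.08; edgeR, adjusted p = 0.705).

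The box C/D snoRNP methylates ribosomal RNA, with Fbl (fibrillarin) as its enzyme and Nop56 and Nop58 as its core. Nop56 had 241, 244 and 218 CPM with C2S, against 300, 291 and 293 CPM in PM_control libraries, without overlap (-0.33 ± 0.06; edgeR, adjusted p = 0.000181). Nop58 fell by 0.29 ± 0.06 on the log2 scale (edgeR, adjusted p = 0.000406), but it did not pass on log2(TPM + 1) with limma (adjusted p = 0.128) or with the GC trend removed (0.134). Fbl had 244, 241 and 237 CPM with C2S, against 212, 216 and 221 CPM in PM_control libraries, and was higher by 11.2% (0.15 ± 0.06; edgeR, adjusted p = 0.0271). The enzyme and its core proteins therefore stood on opposite sides of 0 at the level of transcripts. The counts of Fbl are not whole, so some of its reads are shared with other genes. Rrp9, which binds the U3 RNA of the same class, was at 0.19 ± 0.08 and did not pass (edgeR, adjusted p = 0.0580).

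The box H/ACA snoRNP makes pseudouridine, with Dkc1 (dyskerin) as its enzyme. Dkc1 (chromosome X, 75095854 to 75109777) had 82.7, 81.9 and 80.1 CPM with C2S, against 123, 133 and 144 CPM in PM_control libraries. The C2S values were nearly identical and all lower (fold 0.613, log2 fold change -0.71 ± 0.07; edgeR, adjusted p = 2.80e-07). Its partners Gar1 (-0.13 ± 0.09; edgeR, adjusted p = 0.267) and Nhp2 (-0.12 ± 0.07; edgeR, adjusted p = 0.173) did not pass. Nolc1, a chaperone of snoRNPs, had 478, 555 and 522 CPM with C2S, against 570, 590 and 548 CPM in PM_control libraries, which overlap (-0.14 ± 0.06; edgeR, adjusted p = 0.0843).

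The abundant nucleolar scaffold proteins differed little. Npm1 (nucleophosmin), a histone and ribosome chaperone, was the most abundant of the 40 genes per length, with a mean of 1330 ± 37.5 TPM (the deposited level scaled for transcript length) with C2S and 1376 ± 92.7 TPM in PM_control libraries. In CPM it had 1060, 1069 and 1121 with C2S, against 992, 1049 and 1140 in PM_control libraries, so the C2S values lay inside the PM_control range (0.03 ± 0.06; edgeR, adjusted p = 0.698). With the GC trend removed, Npm1 was called higher (0.18; adjusted p = 0.0260). Mybbp1a, which restrains RNA polymerase I and takes part in processing, had 1148, 1255 and 1267 CPM with C2S, against 1072, 1116 and 1077 CPM in PM_control libraries (0.17 ± 0.06; edgeR, adjusted p = 0.0283). The gap between the groups was smaller than the range of the C2S values.

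Ncl (nucleolin), which binds the nascent precursor, did not pass in CPM (-0.12 ± 0.06; edgeR, adjusted p = 0.110), and its scale mattered. In TPM it averaged 519 ± 23.3 with C2S and 671 ± 34.6 in PM_control libraries. The authors' deposited mean transcript length of Ncl, weighted by isoform, was 4357, 4521 and 4353 bases with C2S, against 4017, 4052 and 3957 bases in PM_control libraries, 10.0% longer on average with no overlap. That difference did not pass limma's test over the 9056 tested genes with a varying length (adjusted p = 0.129), in which 0.364% passed. On log2(TPM + 1) and log2(TPM + 0.1) with limma Ncl was called lower. It was also called lower on counts, with library sizes alone and without the low-count filter. With the GC trend removed Ncl was at 0.01. Lengths did not overlap between the groups in 6 of the 33 genes with a varying length, of which 5 were longer with C2S, as they did not in 15.6% of the 9056 genes.

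Export held 4 genes, of which Bysl passed. Bysl (bystin), needed for late steps and export of the small subunit, had 72.5, 70.8 and 79.9 CPM with C2S, against 103, 104 and 105 CPM in PM_control libraries. The PM_control values were nearly identical and all above the C2S values (-0.48 ± 0.07; edgeR, adjusted p = 2.18e-05). Ltv1, which joins the same particle before export, had 44.9, 45.7 and 42.5 CPM with C2S, against 45.1, 53.3 and 47.3 CPM in PM_control libraries (-0.13 ± 0.09; edgeR, adjusted p = 0.216). Noc2l, whose yeast counterpart moves large subunit precursors within the nucleus, had 280, 288 and 300 CPM with C2S, against 280, 307 and 284 CPM in PM_control libraries (-0.00 ± 0.06; edgeR, adjusted p = 0.953). Samd11 overlaps 20.9% of its exon length, which makes the counts of Noc2l uncertain. Rrp12, an export factor of the small subunit in yeast, was at -0.04 ± 0.07 (edgeR, adjusted p = 0.664). The median log2 fold change was -0.14 for transcription, -0.12 for processing and -0.08 for export, and the differences between the steps were not tested.

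**Figure D2:**
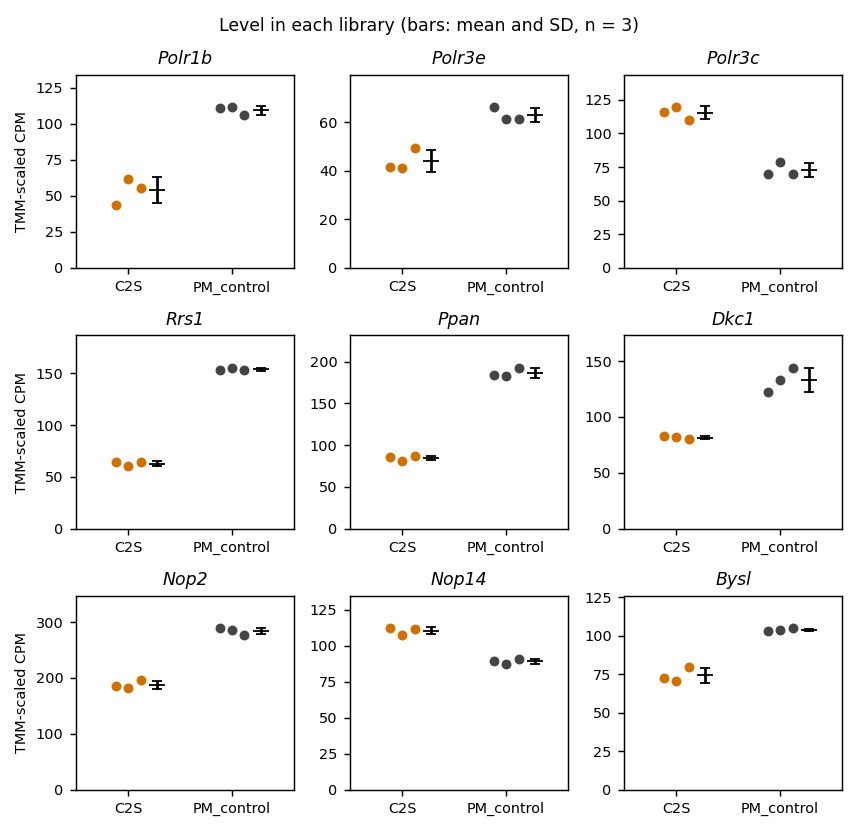
TMM-scaled CPM of 9 of the genes in the 3 C2S libraries (left, orange) and the 3 PM_control libraries (right, grey), with the mean and SD beside the points. In each panel the groups are separate, with Polr3c and Nop14 higher and the other 7 genes lower in C2S libraries.

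**Figure D3:**
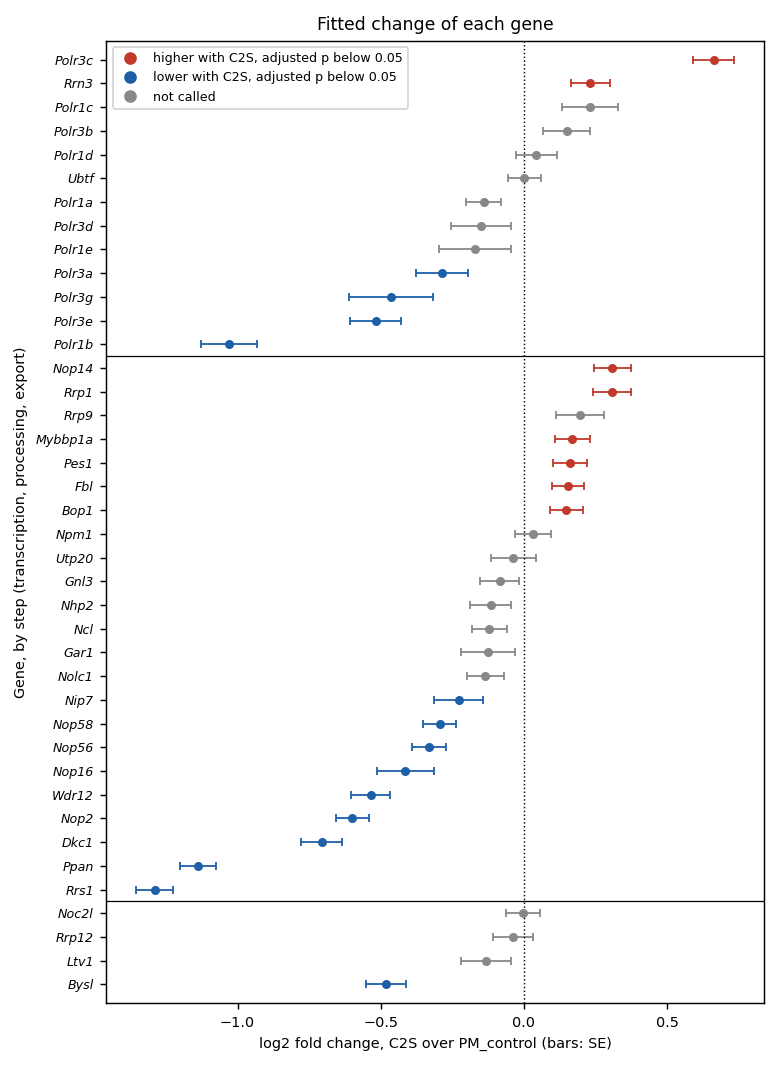
Fitted log2 fold change of C2S over PM_control for each of the 40 genes, with SE bars, ordered by value within transcription, processing and export (top to bottom). The 14 genes called lower reach -1.29 (Rrs1), the 8 called higher reach 0.66 (Polr3c), and 18 are grey.

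Of the 8 rises, those of Polr3c, Rrp1 and Nop14 were called under every alternative tried. Fbl, Mybbp1a, Bop1 and Pes1, with fitted changes of 0.15 to 0.17, lost their calls with library sizes alone, on log2(TPM + 1) with limma and with the GC trend removed, and Fbl, Bop1 and Pes1 also without the low-count filter. Each also lost its call without some single library. For Fbl these were C2S replicate 1 (adjusted p = 0.0576) and PM_control replicates 1 (0.0910) and 2 (0.0867). For Mybbp1a they were C2S replicates 2 (0.0656) and 3 (0.104) and PM_control replicates 1 (0.0901), 2 (0.0519) and 3 (0.0713). For Bop1 they were C2S replicates 1 (0.0874) and 3 (0.0550) and PM_control replicates 1 (0.113), 2 (0.0563) and 3 (0.0876). For Pes1 they were C2S replicates 2 (0.0722) and 3 (0.0641) and PM_control replicates 2 (0.0545) and 3 (0.116), and on log2(TPM + 1) Pes1 was at -0.04. The falls of Rrs1, Ppan, Polr1b, Dkc1, Nop2, Wdr12, Polr3e, Bysl, Nop16 and Nop56 were called under every alternative. Some genes that did not pass were called under other settings. Rrp9 was called higher under 5 of 18 alternatives and Polr1c under 3. Polr1a, Nhp2, Nolc1 and Ncl were called lower under 4 each. Gar1, Gnl3, Ltv1, Npm1, Polr3b and Polr3d gained a call under 1 each.

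Ratios within a library do not depend on the scaling between libraries, and 10 ratios of counts between partners of one complex, chosen after the values were seen, were compared. In most of these pairs 1 gene was called and its partner was not called or was called in the other direction. The ratios therefore restate the fitted changes given above, and their p-values are no separate evidence. The log2 ratio of Polr1b to Polr1a was -2.35 ± 0.20 with C2S and -1.46 ± 0.04 in PM_control libraries (SD, n = 3 each; exact permutation test, two-sided p = 0.1, adjusted p = 0.125). With 3 libraries against 3, 0.1 is the smallest p that this test can give. The ratio of Wdr12 to Pes1 was -1.95 ± 0.04 with C2S and -1.25 ± 0.04 in PM_control libraries, and that of Dkc1 to Nhp2 was -0.84 ± 0.13 with C2S and -0.26 ± 0.04 in PM_control libraries. The ratio of Nop56 to Fbl was -0.04 ± 0.08 with C2S and 0.45 ± 0.05 in PM_control libraries, and that of Nop58 to Fbl was -0.83 ± 0.05 with C2S and -0.39 ± 0.02 in PM_control libraries. In these pairs, and in Polr3a to Polr3b, Polr3e to Polr3d and Ltv1 to Bysl, the values of the groups did not overlap. How often ratios of other gene pairs do not overlap was not computed, and the CPM of 61.1% of all tested genes did not. By contrast, the ratio of Bop1 to Pes1 was -0.21 ± 0.08 with C2S and -0.20 ± 0.06 in PM_control libraries, and that of Gar1 to Nhp2 was -1.45 ± 0.06 with C2S and -1.44 ± 0.04 in PM_control libraries, and both overlapped (exact permutation p = 0.9 each).

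**Figure D4:**
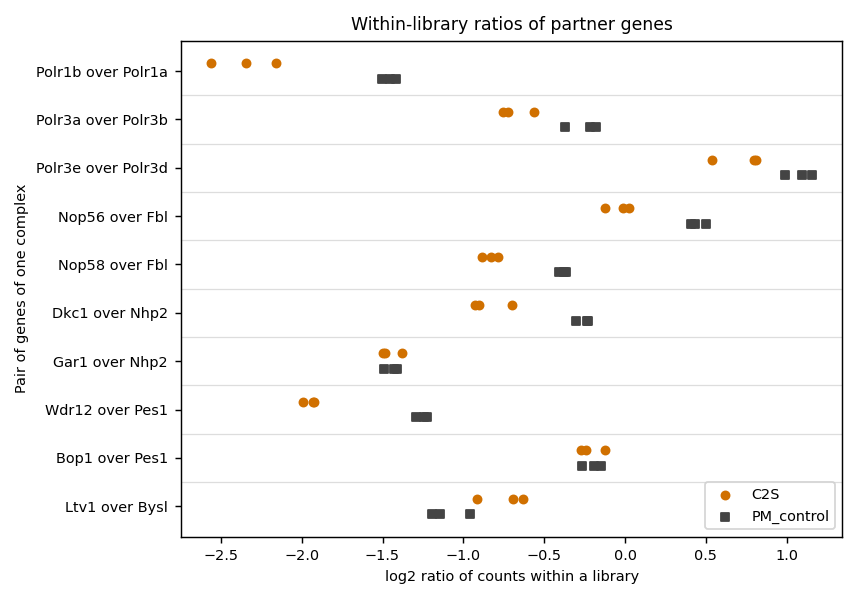
Log2 ratio of counts between 2 genes of one complex in each library, for 10 pairs, with C2S as circles above and PM_control as squares below. The groups are apart in 8 pairs, most widely for Polr1b over Polr1a, and overlap for Gar1 over Nhp2 and Bop1 over Pes1. The pairs were chosen after the values were seen, and no share over other gene pairs was computed.

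The other genes of the pathway, taken from 6 lists with 145 tested genes, were tested in the same fit. Of the 145, 76 (52.4%) were called lower and 12 (8.28%) higher, with a median log2 fold change of -0.24, against 28.4% lower and 27% higher among all tested genes. The medians of all 6 lists were below 0 under each scaling and filter tried. Of 22 factors of RNA polymerases I and III, 16 were lower and 2 higher (median -0.53). Gtf3c5 (-0.99 ± 0.09; edgeR, adjusted p = 1.05e-07) and Gtf3c4 (-0.75 ± 0.07; edgeR, adjusted p = 7.53e-08), subunits of TFIIIC, fell. Taf1d, a subunit of the polymerase I selectivity factor (0.54 ± 0.07), and Maf1, the repressor of RNA polymerase III (0.45 ± 0.09; edgeR, adjusted p = 0.000296), rose.

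Of 13 other subunits of the polymerases, 4 passed and all 4 were lower (median -0.16). Among them were the polymerase I subunit Polr1g (-1.43 ± 0.12; edgeR, adjusted p = 2.83e-08) and the polymerase III subunit Polr3k (-0.54 ± 0.10). Polr2e (-0.24 ± 0.07) and Polr2l (-0.37 ± 0.13), the others that passed, carry the symbols of RNA polymerase II subunits. Of 37 other genes of the small subunit processome, 18 were lower and 3 higher (median -0.17). Imp3 fell to 53.6 ± 4.83 CPM with C2S, against 106 ± 4.62 CPM in PM_control libraries, and Utp3 was at -1.19 ± 0.11, while Imp4 (0.26 ± 0.06) and Heatr1 (0.22 ± 0.08) rose. Of 37 other genes of large subunit assembly, 18 were lower and 3 higher (median -0.22), with Urb2 at -1.29 ± 0.12, Rrp8 at -0.94 ± 0.10 and Nop53 at 0.37 ± 0.08. Ddx54 (0.29 ± 0.07) overlaps another gene over 14.2% of its exon length and is uncertain.

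Of 18 genes of subunit export and cytoplasmic maturation, 9 were lower and 3 higher (median -0.13). Nxt1, a cofactor of nuclear export, fell to 18.1 ± 1.78 CPM with C2S, against 39.0 ± 0.519 CPM in PM_control libraries. Riok1, a kinase of late small subunit maturation, rose to 33.9 ± 2.12 CPM with C2S, against 16.8 ± 0.558 CPM in PM_control libraries, and Lsg1, a cytoplasmic GTPase, rose by 0.25 ± 0.08 on the log2 scale. Tsr1 (-0.62 ± 0.06) overlaps Srr over 32.3% of its exon length and is uncertain. Of 18 genes of the nuclear exosome and of ribosomal RNA nucleases, 11 were lower and 1, Exosc5 (0.26 ± 0.07), was higher (median -0.33). Dis3, a catalytic subunit of the exosome, fell by 0.45 ± 0.07, and Exosc6 lies wholly within exons of Aars, so its counts (none with C2S, 27.8 ± 5.25 CPM in PM_control libraries) are uncertain.

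**Figure D5:**
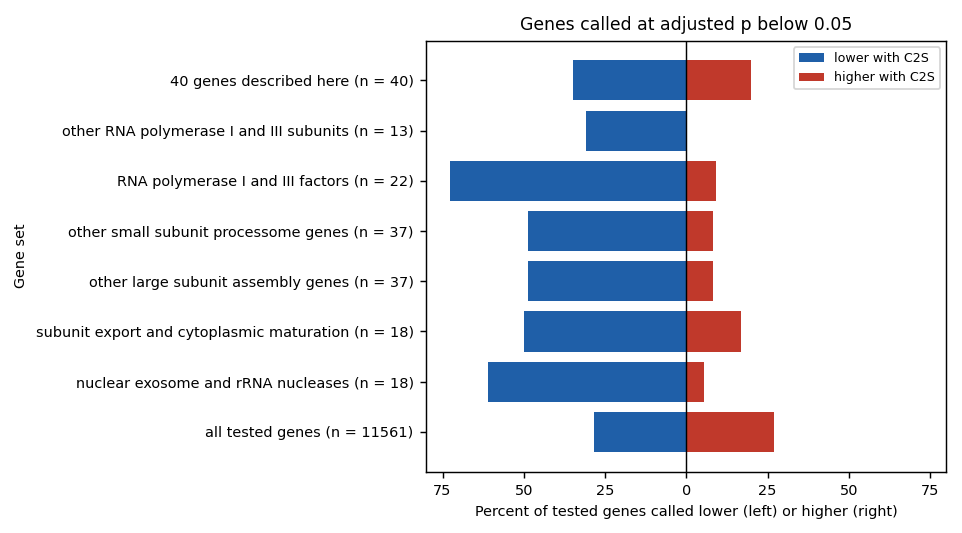
Percent of tested genes called lower (blue, left) and higher (red, right) with C2S in the 40 genes, in 6 lists of other pathway genes and among all tested genes. The 40 genes (35% lower, 20% higher) stand beside all tested genes (28.4% and 27%) and the list of polymerase factors (72.7% and 9.09%).

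The number of exons moved with the change across the transcriptome. The median log2 fold change was -0.51 over protein-coding genes with 1 or 2 exons and 0.06 over those with at least 10. Of the former, 51.4% were lower and 18.8% higher, and of the latter 25.3% were lower and 31.6% higher. No such share was computed for 3 to 9 exons. Rrs1, Imp3 and Utp3 have 1 exon each. Of the 40 genes, the 29 with 10 or more exons had a median of -0.08, with 9 lower and 7 higher, and the 10 with 3 to 9 exons had a median of -0.14, with 4 lower and 1 higher. Among the other large falls, Ppan, Polr1b, Dkc1 and Nop2 have 11 to 16 exons. The part of exon number in these falls and in that of Rrs1 was not tested.

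The letters CACGTG, known as an E-box and bound by MYC and related factors, are a described feature of many ribosome biogenesis promoters. They were searched, as a palindrome that reads alike on both strands, in the 250 bases before each RefSeq start (GRCm38.p6), which matched 33 of the 40 genes. They were found in 3 of the 33 (9.09%), beside 10.1% of tested genes and 6.86% of all genes in the table. With the first 50 bases after the start included, they were found in 8 of the 33 (24.2%), beside 12.1% of tested genes and 8.09% of all genes. The 3 upstream matches lie in 1 gene that fell and 2 that rose, and are printed 5′ to 3′ on the strand of the gene, with the E-box in capitals, to show the letters around it in genes of either direction.
Nop2 (lower, chr6:125131793-125131858, plus strand, E-box from 60 bases before the start): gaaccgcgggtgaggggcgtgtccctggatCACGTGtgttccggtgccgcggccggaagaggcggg
Rrn3 (higher, chr16:13780621-13780686, plus strand, E-box from 48 bases before the start): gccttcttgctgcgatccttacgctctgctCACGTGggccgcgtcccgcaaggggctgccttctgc
Polr3c (higher, chr3:96727641-96727689, minus strand, E-box from 237 bases before the start): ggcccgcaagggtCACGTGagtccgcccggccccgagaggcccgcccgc
The distances are counted from the RefSeq start. For Polr3c that start lies inside the gene as placed above, whose minus-strand start is at 96727628. Its E-box lies nearer to that base than 237 bases. The match is a description of letters and says nothing of which factor binds there. Myc itself had 7, 9 and 14 counts in C2S libraries, against 60, 71 and 47 in PM_control libraries (log2 fold change -2.40 ± 0.33; edgeR, adjusted p = 1.11e-05), and the part of Myc in the changes of these genes was not tested.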

How the data were processed

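The authors removed adapters with fastp, mapped to mm10 with STAR and estimated gene counts with RSEM, according to the design text. Tool versions, annotation and strand setting were not given in the sources used here. Each library's deposited table holds, per the file headers, expected counts, TPM, FPKM and a mean transcript length per gene. The deposited expected counts are RSEM estimates in which reads that map to several genes are shared out. The deposited TPM are scaled for length and library total, and the deposited FPKM were not used. Gene IDs were matched to symbols and GENCODE M21 (GRCm38). Exon overlap was counted on either strand.

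After rounding, filterByExpr (at least 10 counts, at least 15 in total) kept 11561 genes. Groups were compared in R 4.3.3 by the quasi-likelihood test of edgeR 4.0.16 with TMM scaling and no covariate, with Benjamini-Hochberg adjustment over all tested genes at 0.05. DESeq2 1.42.0 and limma 3.58.1 served as alternatives. Levels are TMM-scaled CPM, and the SE is the log2 fold change divided by the square root of F, so it is approximate. The common biological coefficient of variation was 7.52%. On simulated data for C2S against PM_control with 11415 genes, the test recovered 12% of 50 genes changed 1.2-fold, 78% at 1.5-fold and 96% at 2-fold, with 8 false calls. That simulation left most genes unchanged and gave all genes a common dispersion, whereas 55.4% of tested genes passed in the data. Its recovery rates are therefore not those of the reported test.

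No libraries of a group were duplicates (chi-square per degree of freedom 4.30 to 6.46). The genes, lists and tests were chosen with earlier results of these data known. All 40 genes are named. Values of every library are given for called genes among the 4 largest changes of a step, the most abundant gene of each role and genes against the majority. From each list, up to 2 called genes per direction are named, by adjusted p, with a fold change or group means. Polr2e and Polr2l are named besides. The partner ratios, the transcript length test, Rn7sk and Myc were chosen after the data were seen. Sequences of proteins were not used here. Alternatives were other scalings, filters and tests, a replicate block, the removal of single libraries, removing the trend over GC content and leaving out genes with non-whole counts.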

Additional observations from a re-analysis of the deposited data

How the results depend on the processing

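With library sizes alone, 3 of the 40 genes were called higher and the median log2 fold changes were -0.21 over the 40 genes, -0.23 for transcription, -0.21 for processing and -0.17 for export. On log2(TPM + 1) with limma, 1717 genes overall and 3 of the 40 were called higher, with medians of -0.20 over the 40, -0.21 for processing and -0.18 for export, and with a pseudocount of 0.1 these were 1705, 3, -0.20, -0.21 and -0.19. The median of all tested genes shifted by -0.10 on log2(TPM + 0.1), and the median of the 40 minus that of all genes was -0.098 there and -0.12 in the reported test. Higher genes made up 48.8% of all calls, 38.2% with library sizes alone and 35.9% on log2(TPM + 1). Without the low-count filter 5 of the 40 were higher and the transcription median was -0.16, and with the GC trend removed these were 5 and -0.20. Without each library in turn, 5 to 8 of the 40 were higher and 12 to 14 lower, with a median of -0.13 to -0.10 over the 40, -0.14 to -0.075 for transcription, -0.14 to -0.09 for processing and -0.12 to -0.04 for export, and 2920 to 3150 genes overall were higher and 2981 to 3188 lower. Of 717 values of single genes under alternatives, 605 kept direction and side of the threshold, 53 kept direction but lost a call, 30 kept direction and gained one, and 29 changed sign, of which those of Pes1 also lost its call. Sign changes, all of values that did not pass under that setting, were those of Polr1d (-0.045 with library sizes alone, -0.0570 on log2(TPM + 1), -0.0574 on log2(TPM + 0.1), -0.025 with the GC trend removed), Ubtf (-0.087, -0.12, -0.12 and -0.10 under the same settings and -0.021 without the filter), Npm1 (-0.058 with library sizes alone, -0.048 on both TPM scales), Pes1 (-0.0388 on log2(TPM + 1), -0.0390 on log2(TPM + 0.1)), Ncl (0.013 with the GC trend removed) and Noc2l (0.0081 with RLE scaling, 0.0014 without genes with non-whole counts). Without each library in turn, values ran from -0.0080 to 0.090 for Polr1d, -0.018 to 0.029 for Ubtf, -0.018 to 0.083 for Npm1, -0.13 to 0.017 for Utp20, -0.085 to 0.017 for Rrp12 and -0.034 to 0.034 for Noc2l. The causes were not tested.

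The replicate numbers showed no sign of pairing, with deviations from the group means correlated at -0.01, 0.07 and 0.03 for the 3 numbers. How the libraries were prepared cannot be read from these values. With the replicate block, 8 of the 40 were called higher and 14 lower, and 3192 and 3297 genes overall. Changes under 1.5-fold, most of those seen here, were recovered in part in the simulation, in which far fewer genes changed than were called in the data.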
